A study of Mus musculus with 36 samples.

Results

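The genes analysed here are the 43 X-linked genes whose listed start lies from 72500000 to 79999999 on chrX (mm10), out of 252 genes in the 2 deposited tables together. They were chosen by position, with earlier results of these data known. Flna, Emd, Pnma5, Nsdhl and Rab39b, also among the 48 genes in that range, were left out by name. All 43 are in the table of 249 genes in 30 libraries, and 40 are in the table of 242 genes in 20 libraries that holds the K518E line. The 3 genes absent from the second table are Dnase1l1, Ubl4 and Mir669m-2.

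In female mammals X chromosome inactivation (XCI) silences most genes of an X chromosome. It is started by Xist, a long RNA that coats the chromosome it is transcribed from and brings in repressive complexes. SMCHD1 is a protein with an ATPase domain that accumulates on the inactive X and is needed to keep part of its genes silent, and LRIF1 is a partner of SMCHD1 at chromatin.

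The study sequenced chromatin-associated RNA (ChrRNA-seq), which reads transcription close to its source, in 36 libraries from 8 XX mouse embryonic stem cell (mESC) lines. All lines stem from iXist-ChrX, a cross of Cast and 129S with a doxycycline-responsive promoter before Xist on the 129S X, which becomes the inactive X (Xi). Each line is 1 clone. SMCHD1 KO was made in iXist-ChrX itself. Halo-SMCHD1 carries a tag on the native protein and a transgene for eGFP-CIZ1, a fluorescent protein that binds Xist RNA. It is the parent of LRIF1 KO and of the lines with the SMCHD1 mutations E147A, Y353C, G137E and K518E on both alleles. The iXist-ChrX line has neither the tag nor the transgene. Comparisons between the iXist-ChrX and Halo-SMCHD1 backgrounds therefore also differ by both. Undifferentiated cells of Halo-SMCHD1 and its 5 derived lines gave 1 uninduced library and 1 library taken 24 h after adding doxycycline (dox, 1 µg/ml). For day 7 of monolayer differentiation under dox there are 3 libraries of Halo-SMCHD1, 3 of G137E and 2 of every other line. Day 5 was sampled in 2 libraries of Halo-SMCHD1, 2 of G137E and 2 of K518E.

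Every value is an allelic ratio, the fraction Xi/(Xi+Xa) of reads that could be given to an allele, where Xa is the Cast X. A ratio of 0.5 means equal output and 0 means that no 129S read was found. The tables hold no read counts, so the depth behind a ratio is unknown and counting error cannot be stated. A ratio listed at 0 in 1 library therefore does not show complete silencing. Markers of cell type cannot be checked in these tables. Xist served as the check of the allele, and its ratio was between 0.997 and 0.999 in the 30 libraries that received dox and between 0.881 and 0.995 in the 6 uninduced ones. Columns of the iXist-ChrX line use a clone name absent from the labels and were matched by day and replicate number, and 1 of the 2 E147A day 7 libraries has no matched replicate number. That library had the highest median ratio of all day 7 libraries, both over the 43 genes (0.100) and over the rest of its table (0.101).

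Before induction the 43 genes were close to balanced. Over Halo-SMCHD1, LRIF1 KO, E147A, Y353C and G137E, the 5 lines that share the larger table, the median over the genes lay between 0.514 and 0.543 per library, against 0.514 to 0.522 for the rest of the table. Outside 0.25 to 0.75 in the mean of these lines were 3 genes. Atp6ap1, which encodes an accessory subunit of the vacuolar proton pump, was mostly read from Cast, with a ratio of 0.138. Mageb16, a gene of the MAGE family, had a ratio of 0.822 and Mir669m-2 one of 0.877. The row named Mir669m-2 spans 311535 bases, so it holds more than the microRNA of that name.

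All 43 genes fell within 24 h of dox. Each had an adjusted p under 0.05 for 24 h against uninduced (limma with the line as a block, 5 lines), where the background was 95.6% of the 249 genes called lower. The libraries of the 2 stages did not overlap for 41 of the 43, against a background of 90% of all genes, and the 2 exceptions were Ssr4 and Gab3. The genes differed in how far they had fallen. The share left, the ratio at 24 h as a percent of the uninduced ratio of the same line, had a median of 56.4% over the 43 genes and ranged from 17.8% to 90.2%.

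**Figure D1:**
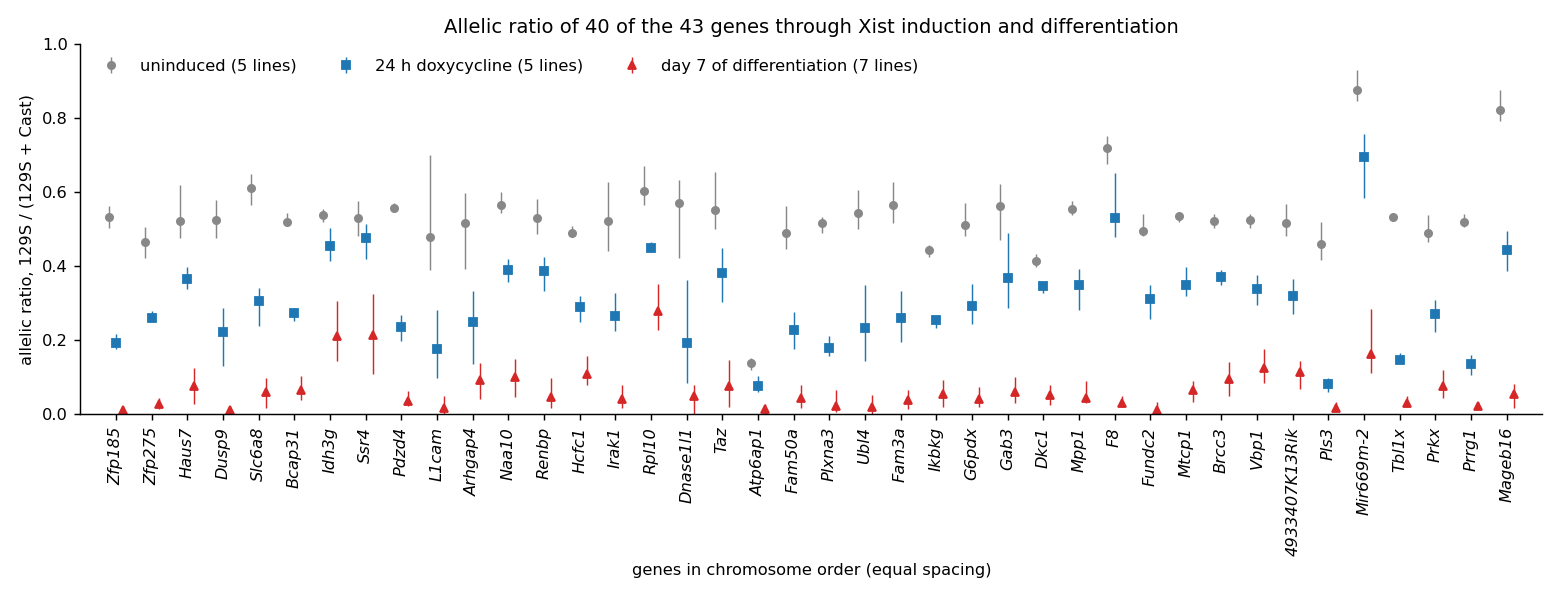
Allelic ratio (vertical axis, 129S share of allelic reads) of 40 of the 43 genes in chromosome order (horizontal axis), uninduced and after 24 h of dox (mean of 5 lines) and at day 7 (mean of 7 lines), with bars from the lowest to the highest line. As a share of the uninduced ratio, Pls3 fell furthest by 24 h, and Ssr4 and Idh3g fell least. Rpl10, Ssr4 and Idh3g kept the highest ratios at day 7.

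The 3 fastest genes were Pls3, Prrg1 and Tbl1x. Pls3, which encodes an actin-bundling protein, went from 0.465, 0.453, 0.417, 0.448 and 0.520 in uninduced Halo-SMCHD1, G137E, LRIF1 KO, E147A and Y353C to 0.0808, 0.0985, 0.0608, 0.0872 and 0.0819. No line overlapped, and 17.8% ± 2.9 of the uninduced ratio was left (SD, n = 5 lines). Its log2 odds fell by 3.13 (SE 0.114, limma adjusted p = 1.97e-06). Prrg1, a membrane protein with a Gla domain, kept 26.1% ± 4.2, and Tbl1x, a subunit of a transcriptional corepressor, kept 27.8% ± 2.5. Dnase1l1, a gene related to DNase I, came next at 34.1%, but its 5 lines ranged from 13.5% to 59.1%.

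The slowest pair was Ssr4, which encodes a subunit of the translocon-associated complex of the endoplasmic reticulum, and Idh3g, a regulatory subunit of mitochondrial isocitrate dehydrogenase. Ssr4 had uninduced ratios of 0.482, 0.525, 0.575, 0.527 and 0.546 and ratios of 0.489, 0.419, 0.489, 0.514 and 0.474 after 24 h, in the same order of lines. In Halo-SMCHD1 101.5% was left, and in the other 4 lines the ratio was lower than before. The mean share left was 90.2% ± 9.0, and its limma adjusted p was 0.0462 (log2 odds difference -0.30, SE 0.121), which rose to 0.13 without G137E or without LRIF1 KO and 0.12 without Y353C. Idh3g kept 84.2% ± 7.0 (log2 odds difference -0.49, SE 0.106, limma adjusted p = 0.00391). Dkc1, which encodes the pseudouridine synthase dyskerin, kept 83.7% ± 5.3, and Mir669m-2 kept 79.1% ± 7.1.

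The order of the genes was alike between lines. Across the 43 genes the Spearman correlation of the share left between 2 of the 5 lines had a median of 0.784 over the line pairs and a range of 0.648 to 0.847. Genes share each library and its allele assignment, so this is a description. Gene length followed the share left weakly among the 43 genes (Spearman rho -0.15) and more so among 204 other genes of the table (rho -0.31).

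Idh3g and Ssr4 are transcribed away from each other, and their listed 5′ ends are 130 bases apart. The closest such pair is Mtcp1 and Brcc3, 84 bases apart. Mtcp1 was first found at a T cell leukaemia breakpoint, and Brcc3 encodes a deubiquitinase of a BRCA1 complex. Because the pairs share their upstream sequence, 1 promoter window holds the start of both genes. The windows below, from RefSeq (GRCm38.p6), run from 250 bases before to 50 bases after a gene's start and are written 5′ to 3′ on the strand of the named gene. They are shown for the pairs, for Rpl10, which had the highest ratio at day 7, and for Zfp185 and Fundc2, the genes with the lowest ratios that have a window in the table used. Capitals mark the letters GCCATNTT, the core of the YY1 motif, on either strand. The Ssr4 window is chrX:73786773-73787072 (plus strand), that of Mtcp1 chrX:75416535-75416834 (minus strand), that of Rpl10 chrX:74270566-74270865, that of Zfp185 chrX:72987089-72987388 and that of Fundc2 chrX:75382149-75382448, the last 3 on the plus strand.
Ssr4: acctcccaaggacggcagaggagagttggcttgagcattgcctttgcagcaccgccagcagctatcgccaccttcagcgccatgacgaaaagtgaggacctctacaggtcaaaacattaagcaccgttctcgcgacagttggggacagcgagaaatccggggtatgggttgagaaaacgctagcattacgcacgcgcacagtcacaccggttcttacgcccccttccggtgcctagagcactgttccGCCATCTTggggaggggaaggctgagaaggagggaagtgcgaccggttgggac
Mtcp1: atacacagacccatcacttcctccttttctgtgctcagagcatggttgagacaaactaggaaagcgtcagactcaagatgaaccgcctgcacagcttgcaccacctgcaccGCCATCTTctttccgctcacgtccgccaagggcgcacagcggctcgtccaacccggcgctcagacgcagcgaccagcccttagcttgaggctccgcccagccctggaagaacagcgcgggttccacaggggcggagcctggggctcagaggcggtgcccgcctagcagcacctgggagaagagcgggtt
Rpl10: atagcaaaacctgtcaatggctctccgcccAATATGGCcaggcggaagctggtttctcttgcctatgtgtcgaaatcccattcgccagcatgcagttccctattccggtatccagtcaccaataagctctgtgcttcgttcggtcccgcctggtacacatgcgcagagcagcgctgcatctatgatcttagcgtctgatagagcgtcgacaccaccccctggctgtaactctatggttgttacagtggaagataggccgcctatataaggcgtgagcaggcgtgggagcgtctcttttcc
Zfp185: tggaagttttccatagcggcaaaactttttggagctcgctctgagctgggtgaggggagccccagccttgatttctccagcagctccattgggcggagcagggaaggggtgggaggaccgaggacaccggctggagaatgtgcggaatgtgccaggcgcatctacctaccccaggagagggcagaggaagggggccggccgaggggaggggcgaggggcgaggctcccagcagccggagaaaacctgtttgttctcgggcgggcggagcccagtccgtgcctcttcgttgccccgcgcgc
Fundc2: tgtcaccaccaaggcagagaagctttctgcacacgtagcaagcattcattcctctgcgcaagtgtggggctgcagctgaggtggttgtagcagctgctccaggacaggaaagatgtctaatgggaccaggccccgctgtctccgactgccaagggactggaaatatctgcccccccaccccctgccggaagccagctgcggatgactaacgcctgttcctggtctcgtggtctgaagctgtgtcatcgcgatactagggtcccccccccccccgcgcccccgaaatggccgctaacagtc

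RefSeq windows were matched by symbol for 34 of the 43 genes, and 7 of them (20.6%) hold the YY1 core on either strand. The share was 8.33% of 168 windows of other genes in the tables and 6.04% of all 32817 windows of the RefSeq table. The 7 are Idh3g, Ssr4, Hcfc1, Irak1, Rpl10, Mtcp1 and Vbp1, and the matches of Idh3g and Ssr4 are the same 8 bases, from 73787020 to 73787027, across the start of Ssr4. The 7 genes had a median day 7 ratio of 0.126 (0.041 to 0.280), and the 27 genes with no match one of 0.0432 (0.012 to 0.113). These are counts of letters, with no test and no statement on YY1 itself. CG dinucleotides numbered 20 in the Ssr4 window, 20 in that of Mtcp1, 17 in that of Rpl10, 20 in that of Zfp185 and 14 in that of Fundc2. The CG count did not order the genes by their day 7 ratio (Spearman rho 0.11 across 34 genes).

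Most genes had lower ratios at day 7 than at day 5, and few passed the test. In Halo-SMCHD1, 37 of 40 genes were lower at day 7 in log2 odds, and 4 passed limma, against a background of 9.09% of 242 genes called lower. They were Slc6a8 (the creatine transporter), Mpp1 (a membrane scaffold protein), Brcc3 and Tbl1x. In G137E, 36 of 40 were lower and 5 passed, against a background of 7.44%, namely L1cam (an adhesion molecule of neurons), Mpp1, Fundc2 (a protein of the outer mitochondrial membrane), Pls3 and Tbl1x. Mpp1 had ratios of 0.124 and 0.08 at day 5 and of 0.0123, 0.023 and 0.0514 at day 7 in Halo-SMCHD1. The days did not overlap, and the log2 odds fell by 1.74 (SE 0.422, limma adjusted p = 0.0331). In K518E 35 of 40 were lower at day 7 and 0 passed, where the background was 0.413% called lower, with 0 at an unadjusted p under 0.05 against 4.55%.

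Leaving out either day 5 library or day 7 replicate 1 of Halo-SMCHD1 left 0 of its 4 calls. The same held for the 5 calls of G137E without either day 5 library or without day 7 replicate 1 or 2, whereas leaving out day 7 replicate 3 gave 10. An unadjusted p under 0.05 was found for 16 of 40 genes in Halo-SMCHD1 and for 13 of 40 in G137E, against backgrounds of 36.4% and 31% of 242 genes. All day 7 libraries lay below all day 5 libraries for 19 of 40 genes in Halo-SMCHD1 (background 50.8%), 17 in G137E (46.3%) and 22 in K518E (42.1%).

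At day 7 the genes spread from near 0 to 0.280. Averaged over the 7 lines of the larger table, 8 of the 43 genes (18.6%) kept a ratio above 0.1, against 52 of 205 other genes (25.4%), and 7 were under 0.02. The other genes include 4 of those left out of the range by name, 1 of which was above 0.1. Grouped by role, the lists being chosen with earlier results known, the 9 genes of RNA, ribosome and protein handling had a median of 0.066, the 6 of chromatin, transcription and cell division 0.077, the 7 of metabolism and transport 0.059, and the 10 of signalling and adhesion 0.042. The 2 genes on the list named mitochondria, Fundc2 and Mtcp1, had 0.012 and 0.065. The cytoskeletal Pls3 had 0.0168, and the 8 genes on no list had a median of 0.045.

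Rpl10, which encodes a protein of the large ribosomal subunit, had the highest mean ratio, 0.280 ± 0.046 (SD over 7 lines). Ribosomal protein genes have many near-identical copies; the authors kept unique alignments only, and whether copies affect this ratio was not tested. Ssr4 followed at 0.215 ± 0.079 and Idh3g at 0.211 ± 0.061, and neither differed from the other by more than their spread over lines. Mir669m-2 had 0.163 ± 0.060 and Vbp1, a prefoldin subunit, 0.126 ± 0.034. A slow start did not always end high: Dkc1 kept 83.7% at 24 h but had 0.0516 at day 7, and F8, the coagulation factor VIII gene, kept 73.7% and had 0.0314. Across the 43 genes the share left at 24 h and the day 7 ratio had a Spearman rho of 0.63, against 0.77 across 204 other genes.

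The lowest ratios at day 7 were those of Dusp9 (a MAP kinase phosphatase, 0.0114), Fundc2 (0.012), Zfp185 (0.0123) and Atp6ap1 (0.0131, a gene already low before induction). These 4 did not differ beyond their spread over lines, whose SD was 0.0056 to 0.0123. Fundc2 was listed at 0 in both iXist-ChrX libraries, in 2 of the 3 libraries of both Halo-SMCHD1 and G137E, and in replicate 1 of SMCHD1 KO, LRIF1 KO and E147A.

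At day 7 each of 4 lines with lost SMCHD1, LRIF1 or ATPase function was compared with its parent line. In the mean over the 43 genes, SMCHD1 KO was 0.0299 above iXist-ChrX, E147A 0.0498 above Halo-SMCHD1, Y353C 0.0289 above and LRIF1 KO 0.0102 above. The SD of the library means within the compared lines was 0.0123, 0.0324, 0.00677 and 0.0111 in this order, so the difference of LRIF1 KO was within that spread. Single libraries moved these values: E147A was 0.0179 above without its library with no matched replicate number and 0.0818 without replicate 1, and SMCHD1 KO was 0.0193 above without its replicate 2. LRIF1 KO was 0.00065 above without its replicate 2, 0.0197 without its replicate 1 and 0.00601 without Halo-SMCHD1 replicate 1. The rest of the table moved by 0.0166, 0.0373, 0.0199 and 0.0115. In median log2 odds the 43 genes differed by 0.65 in SMCHD1 KO, where the other genes differed by 0.21, by 1.13 and 0.83 in E147A, by 0.73 and 0.47 in Y353C, and by 0.32 and 0.25 in LRIF1 KO. E147A, Y353C and LRIF1 KO share the Halo-SMCHD1 libraries.

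**Figure D2:**
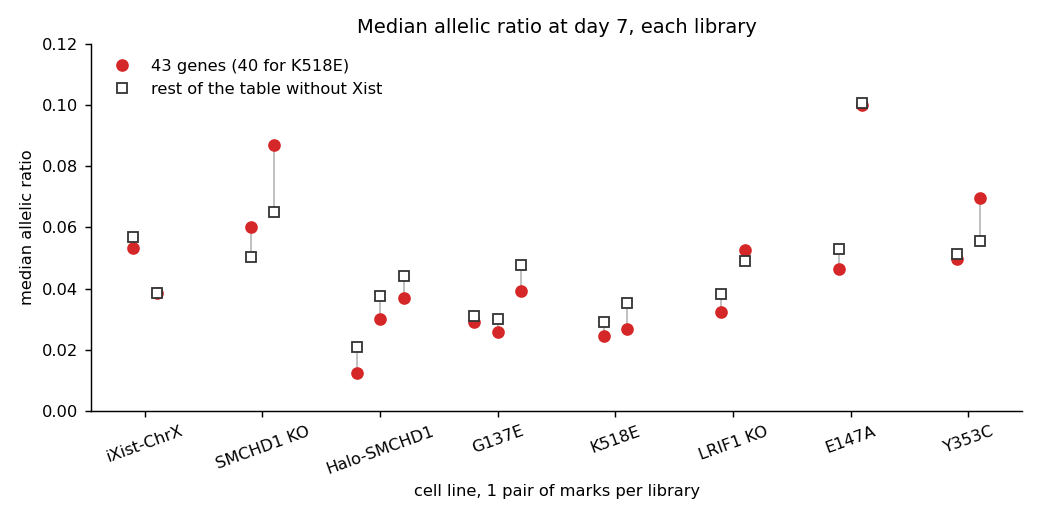
Median allelic ratio at day 7 (vertical axis) of the 43 genes (red circles, 40 for K518E) and of the rest of the same table without Xist (open squares) in each library, by cell line (horizontal axis). The 43 genes lay above the rest in both SMCHD1 KO libraries and below it in all Halo-SMCHD1, G137E and K518E libraries.

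The median over the 43 genes was 0.060 and 0.087 in the SMCHD1 KO libraries, against 0.050 and 0.065 in the rest of the table. In the Halo-SMCHD1 libraries it was 0.012, 0.030 and 0.037, against 0.021, 0.038 and 0.044. The segment's median was thus above that of the remaining genes in SMCHD1 KO and below it in Halo-SMCHD1. It was also below in both libraries of iXist-ChrX (differences of -0.00368 and -0.000106) and of E147A (-0.00673 and -0.000840). In replicates 1 and 2 the difference was -0.00152 and 0.0142 in Y353C and -0.00584 and 0.00345 in LRIF1 KO. The means put the segment below the rest in SMCHD1 KO too, at 0.0796 against 0.0904 and 0.101 against 0.111. The difference between these positions was not tested. Genes from 20 to 45 Mb had medians of 0.050 and 0.074 in SMCHD1 KO, and genes between 45 Mb and the segment had 0.030 and 0.053.

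E147A, a mutation that blocks ATP hydrolysis, was compared with Halo-SMCHD1. Of the 43 genes 41 were higher, and 9 passed limma (20.9%), where the background was 16.1% of 249 genes called higher. Those on the signalling and adhesion list included L1cam and Ikbkg (the NEMO subunit of the NF-kappaB kinase). Haus7, a subunit of the spindle complex augmin, and Brcc3 were on the chromatin and cell division list. Other calls were Taz, the tafazzin gene of cardiolipin remodelling, Bcap31, an endoplasmic reticulum chaperone, Mtcp1, and the kinase gene Prkx. The libraries did not overlap for 20 of 43 genes (46.5%), against a background of 46.2%, and 20 had an unadjusted p under 0.05, against 37.8%.

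Haus7 had ratios of 0.133 and 0.115 in E147A and of 0.0123, 0.0217 and 0.05 in Halo-SMCHD1. The groups did not overlap, and the log2 odds rose by 2.08 (SE 0.466, limma adjusted p = 0.0134). Fam50a, a nuclear protein whose libraries did not overlap either, differed by 2.32 (SE 1.04, limma adjusted p = 0.12) and did not pass. The count of E147A depended on single libraries: it was 0 without the E147A library with no matched replicate number, 0 without Halo-SMCHD1 replicate 1 and 20 without E147A replicate 1. It was also 0 with iXist-ChrX in place of Halo-SMCHD1 and with only the compared libraries. A fit with the replicate number as a block could not use the E147A library with no matched replicate number. It left 1 E147A library, so it gives no separate check of this count.

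In Y353C, another mutation that impairs the ATPase, 39 of 43 genes were higher and Mtcp1 alone passed limma, where the background was 3.61% called higher. Mtcp1 had 0.0968 and 0.0791 in Y353C and 0.0238, 0.0424 and 0.0311 in Halo-SMCHD1. It rose by 1.31 in log2 odds (SE 0.291, limma adjusted p = 0.0217), and the call was lost without either Y353C library, without Halo-SMCHD1 replicate 1 or against iXist-ChrX. An unadjusted p under 0.05 was found for 11 of 43, against a background of 19.7%. The libraries of 23 genes (53.5%) lay above those of Halo-SMCHD1, against a background of 42.2%. Among them Slc6a8 and Taz differed by 2.42 and 2.15, with a limma adjusted p of 0.16 for both.

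In SMCHD1 KO 33 genes were higher than in iXist-ChrX and 0 passed limma, where the background was 0.803% called higher, and 8 had an unadjusted p under 0.05 against a background of 13.7%. The libraries of 16 genes (37.2%) lay above those of iXist-ChrX, against a background of 27.7%. The largest of these was Ssr4, with 0.304 and 0.343 in SMCHD1 KO and 0.135 and 0.082 in iXist-ChrX (log2 odds difference 1.92, SE 0.582, limma adjusted p = 0.18). Taz and G6pdx, which encodes the first enzyme of the pentose phosphate pathway, followed at 1.74 and 1.65. With Halo-SMCHD1, which also carries the tag and the transgene, as the control 10 genes passed, where the background was 12.9% called higher. In LRIF1 KO 32 genes were higher than in Halo-SMCHD1 and 0 passed limma, as in the background (0% of 249), with 4 at an unadjusted p under 0.05 against 11.2%. The largest differences without overlap were those of Taz (1.97) and Haus7 (1.46), and 9 genes (20.9%) had all libraries higher, against a background of 21.3%.

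Each of these comparisons rests on few libraries, so the 4 lines were also set as 1 group against iXist-ChrX, Halo-SMCHD1 and G137E, with lines weighted equally. Here 40 of 43 genes were higher and 12 passed limma (27.9%), where the background was 22.9% called higher, and 22 had an unadjusted p under 0.05, against 34.5%. The spread in this fit is that between libraries of a line, so the test does not cover differences between clones. The 12 included Idh3g, Taz and G6pdx among 7 metabolic genes, Ikbkg among 10 signalling genes, Bcap31 and Ssr4 among 9 of protein and RNA handling, Haus7, Hcfc1 and Brcc3 among 6 chromatin and cell division genes, and Mtcp1 and Prkx. Hcfc1 encodes a cofactor that binds many promoters. Bcap31, Idh3g, Ikbkg and Mtcp1 passed in each of 23 alternatives, and the count ranged from 4 to 17 when 1 library was left out. Haus7 lost its call in 15 of the 23 alternatives and G6pdx in 14.

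Ikbkg was the 1 gene of the 43 in which all libraries of the 4 lines lay above all libraries of the 3 others, against a background of 1.61% of the 249 genes. Its ratios were 0.105 and 0.0802 in SMCHD1 KO, 0.0749 and 0.0458 in LRIF1 KO, 0.0701 and 0.101 in E147A and 0.0678 and 0.0534 in Y353C. The control ratios were 0.0264 and 0.0367 (iXist-ChrX), 0.0362, 0.0156 and 0.0238 (Halo-SMCHD1), and 0.0146, 0.00865 and 0.0333 (G137E). The 2 sets were separated by the gap from 0.0367 to 0.0458, and the K518E libraries, at 0.0161 and 0.0177, lay with the second. The log2 odds differed by 1.37 (SE 0.256, limma adjusted p = 0.00338).

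Idh3g had means of 0.253 over the 4 lines and 0.156 over the 3 (log2 odds difference 0.84, SE 0.183, limma adjusted p = 0.00833). Ssr4 had means of 0.264 and 0.150 (difference 1.05, SE 0.294, limma adjusted p = 0.0254). In both genes the libraries of the groups overlapped. For Idh3g LRIF1 KO, with 0.179 and 0.225, was close to the highest libraries of the controls, 0.206 in iXist-ChrX and 0.189 in G137E. For Ssr4 both LRIF1 KO libraries (0.177 and 0.183) and E147A replicate 1 (0.224) lay below the highest control libraries, 0.234 in G137E and 0.229 in Halo-SMCHD1. Mtcp1 had 0.0816 and 0.0432 (difference 0.87, SE 0.161, limma adjusted p = 0.00338), and Brcc3 had 0.113 and 0.0682 (0.73, SE 0.18, limma adjusted p = 0.0144).

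**Figure D3:**
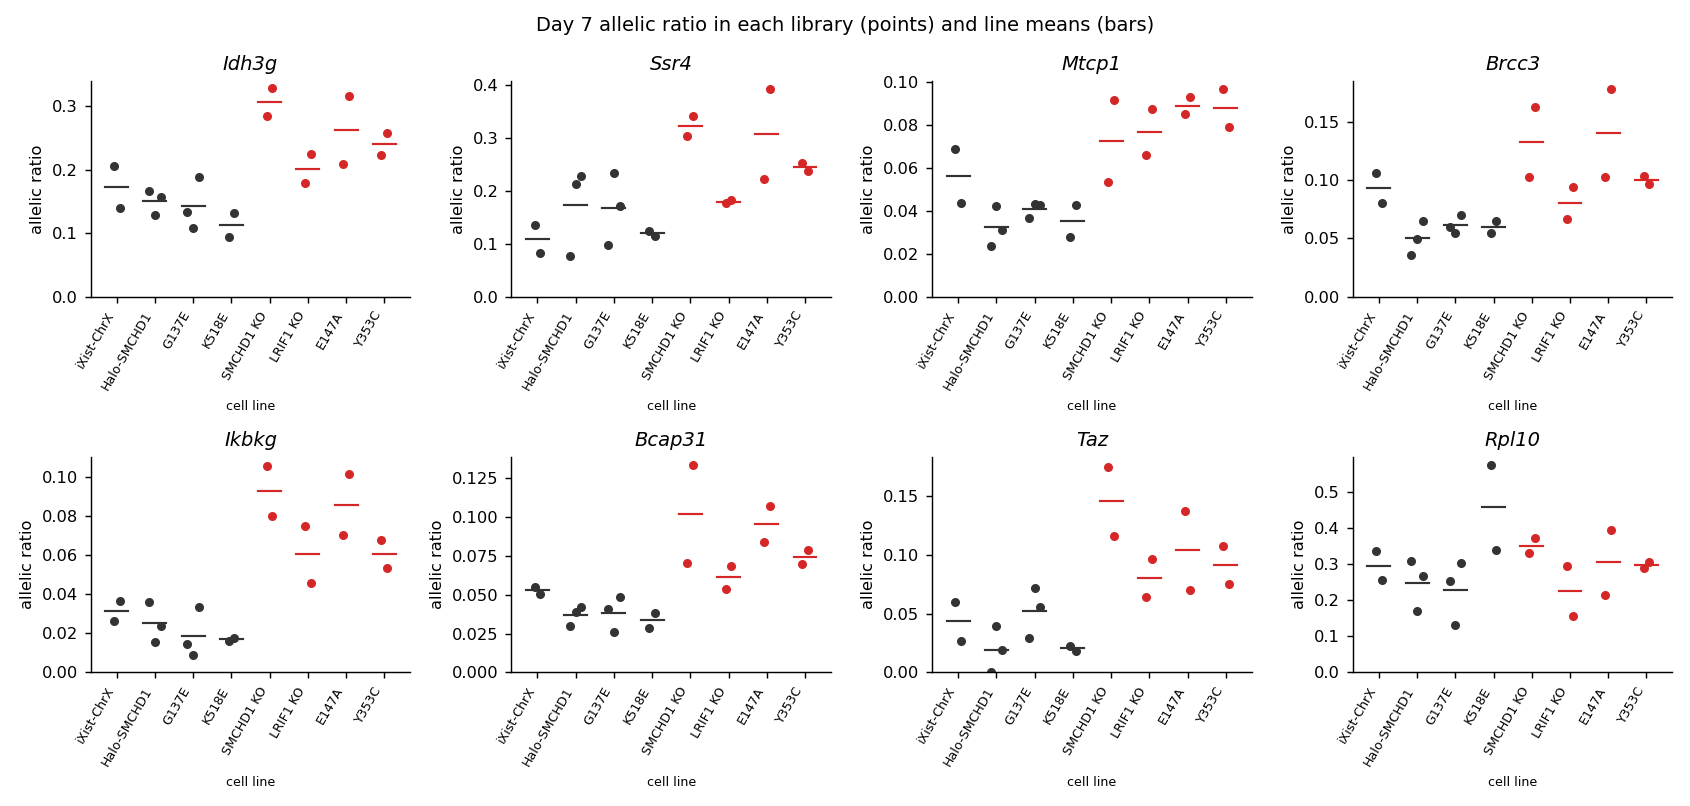
Day 7 allelic ratio (vertical axes, each with its own range from 0) of 8 genes in each library by cell line (horizontal axes), with bars at line means. Black marks iXist-ChrX, Halo-SMCHD1, G137E and K518E, and red marks SMCHD1 KO, LRIF1 KO, E147A and Y353C. For Ikbkg the red points lie above all black points, and for Rpl10 they do not separate.

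Halo-SMCHD1 was also compared with iXist-ChrX. Both have SMCHD1, and Halo-SMCHD1 differs by the tag and the eGFP-CIZ1 transgene. Of the 43 genes 32 were lower in Halo-SMCHD1, with a median log2 odds difference of -0.35 over the 43 and -0.36 over the rest. Limma called 0 of the 43, as in the background (0%), with 6 at an unadjusted p under 0.05 against 11.6% of all genes. Dkc1 differed by -1.72 and was among 13 genes whose libraries all lay lower (30.2%, background 25.3%).

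The point mutants G137E and K518E were compared with Halo-SMCHD1 at both days in the second table, with 40 of the genes. At day 5, 35 of 40 genes were lower in K518E, by 0.017 in the mean ratio (SD of library means 0.0088), against 0.0206 in the rest. In median log2 odds the order was the other way, with -0.50 over the 40 genes and -0.46 over the rest. The libraries of 22 genes (55.0%) lay below those of Halo-SMCHD1, where the background was 60.7%. Limma called 0 of the 40 in either direction, where the background was 0.413% called higher and 0% lower, and 3 had an unadjusted p under 0.05 against 12.8%. Fam3a, L1cam and Plxna3, a semaphorin receptor, had the largest of these differences, -1.61, -1.19 and -1.18. Against G137E at day 5, 36 of 40 were lower in K518E and 0 passed limma (7 unadjusted, background 15.7%), where the background was 0.413% called higher. The libraries of 24 of 40 genes lay below those of G137E, against 56.6% of all genes, and Taz (-2.24), Fundc2 (-2.14) and L1cam (-1.52) led.

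At day 7 the K518E and Halo-SMCHD1 lines were alike in the mean, with a difference of 0.0026 (SD of library means 0.0065), 21 genes higher and 19 lower in log2 odds, and 0 calls where the background was 0%. G137E had 25 of 40 genes higher than Halo-SMCHD1 at day 5 and 26 at day 7, with 0 calls at either day and a background of 0%. An unadjusted p under 0.05 was reached by 1 of the 40 in K518E at day 7 (background 4.96%), and in G137E by 1 at day 5 (2.89%) and 2 at day 7 (8.26%). The change of the effect from day 5 to day 7 was tested by an interaction, which called 0 of the 40 in K518E (1 unadjusted, background 7.02%, with 0.413% of all genes called higher) and 0 in G137E (0 unadjusted, background 4.55%, with 0% called).

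Rpl10 had higher ratios in K518E, a difference that did not pass the test. Its ratios were 0.559 and 0.303 at day 5 and 0.577 and 0.341 at day 7, where Halo-SMCHD1 had 0.267 and 0.281 at day 5 and 0.31, 0.17 and 0.268 at day 7. All K518E libraries were higher, and replicate 1 was the higher at both days. At day 7 the log2 odds difference was 1.34 (SE 0.595, limma adjusted p = 0.893). Uninduced, K518E had 0.689 and Halo-SMCHD1 0.671.

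**Figure D4:**
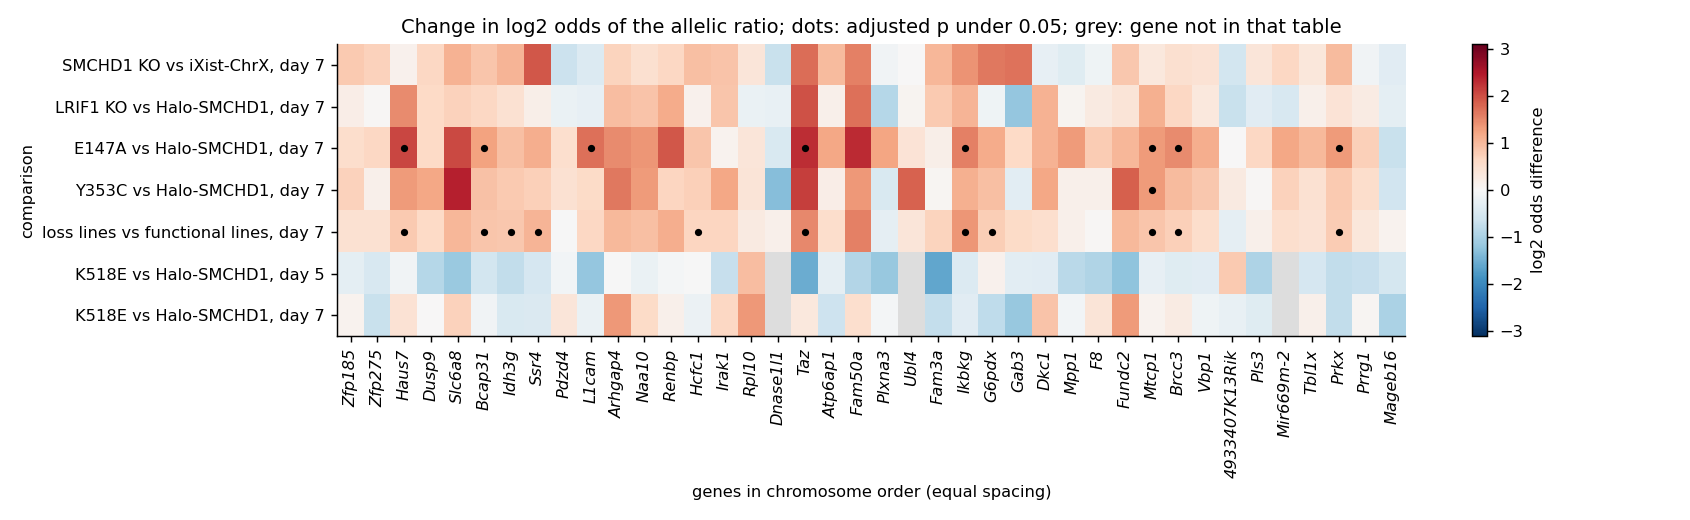
Difference in log2 odds of the allelic ratio (colour, red higher in the line named first) for 40 of the 43 genes in chromosome order (horizontal axis) in 7 comparisons (vertical axis); dots mark limma adjusted p under 0.05 and grey the 3 genes absent from the second table. The calls in E147A and in the grouped comparison are scattered along the segment, and most genes are blue in K518E at day 5.

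Neighbours were compared in the order of their listed starts, which gave 42 pairs, 3 of them with left-out genes between them. Genes that did not pass the read filter of the authors are not listed and may lie between any of the pairs. The start of a gene was 35.2 kb from that of the next in the median, against 130 kb between neighbours elsewhere in the table. At day 7 the ratios of 2 neighbours differed by 0.0329 in the median pair (mean absolute difference over 7 lines), against 0.0385 over all 903 pairs of the 43 genes and 0.0420 over 201 neighbour pairs elsewhere. For the 23 pairs with starts within 50 kb it was 0.0320. On the log2 odds scale the order turned, with 1.15 for neighbours and 1.11 over all pairs. The Spearman correlation of the day 7 ratio between a gene and the next was 0.04 over the 42 pairs and 0.17 over the 201 others. For the share left at 24 h it was 0.09 and 0.45. In size, the share left differed by 13.7 percentage points between neighbours in the median, against 17.6 over all pairs and 17.3 between neighbours elsewhere, and the log2 odds change at 24 h by 0.37, against 0.63 and 0.61. The Spearman correlation of that log2 odds change was 0.26 over the 42 pairs and 0.47 elsewhere. For all 3 measures neighbours in the segment were less alike in rank than neighbours elsewhere, which was not tested, while their differences at 24 h were smaller than those of all pairs.

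**Figure D5:**
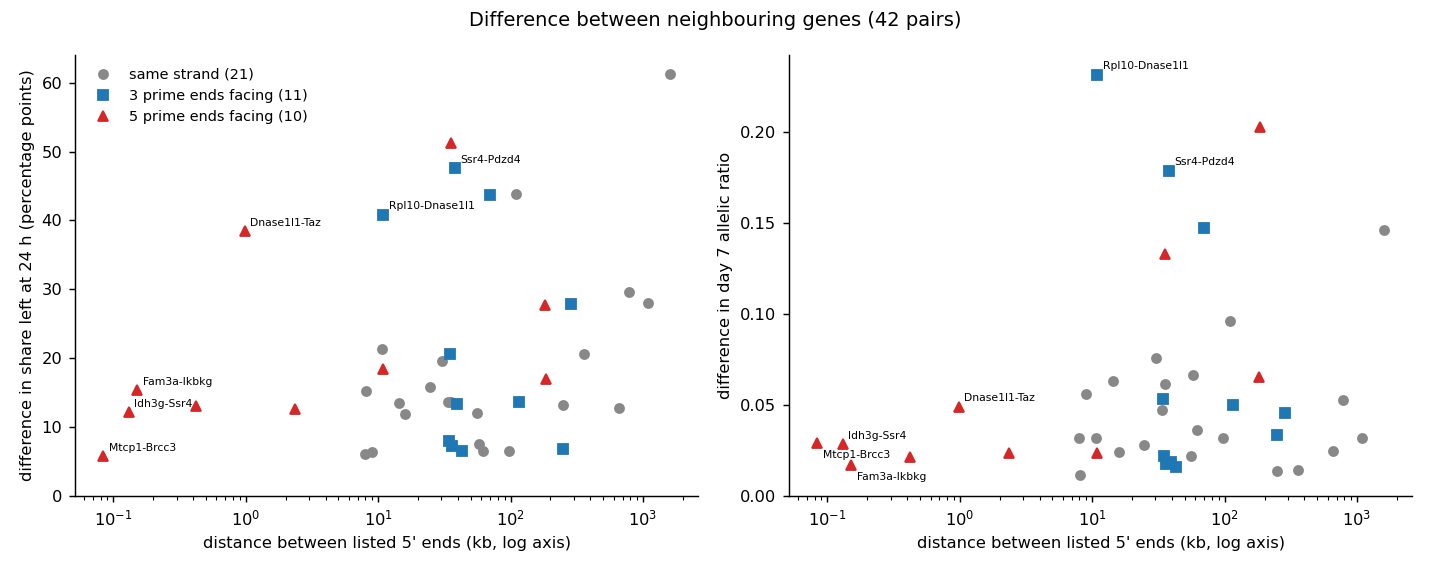
Absolute difference between neighbouring genes (42 pairs) in the share left at 24 h (left, percentage points, mean of 5 lines) and in the day 7 allelic ratio (right, mean of 7 lines) against the distance between their listed 5′ ends (kb, log axis), by orientation. Of the 5 pairs with facing 5′ ends within 1 kb, Dnase1l1 and Taz differ most at day 7 (0.0491), and the largest day 7 difference is that of Rpl10 and Dnase1l1.

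Large steps between neighbours lay at Rpl10 and at Ssr4. Rpl10 ends 80 bases before Dnase1l1, which is transcribed towards it, and their day 7 ratios were 0.280 and 0.0483, with Rpl10 higher in 7 of 7 lines. Ssr4 (0.215) and Pdzd4 (0.0364), separated by 2527 bases, differed in the same direction in 7 of 7 lines. The authors counted reads by strand, and Dnase1l1 and Pdzd4 lie on the strand opposite to Rpl10 and Ssr4. The cause of these steps was not tested.

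The 5 pairs whose 5′ ends face each other within 1 kb had a median day 7 difference of 0.0286, against 0.0321 for 21 pairs on the same strand and 0.0454 for 11 pairs with facing 3′ ends. Among them Idh3g and Ssr4 had nearly the same mean at day 7 (0.211 and 0.215) and were both far from the next gene, Pdzd4 (0.0364). Single lines went opposite ways, with 0.173 and 0.108 in iXist-ChrX and 0.263 and 0.308 in E147A. The mean absolute difference of this pair over lines was 0.0286, the median of the facing pairs. Mtcp1 (0.0651) was below Brcc3 (0.094) in 7 of 7 lines. Fam3a and Ikbkg, 151 bases apart, had 0.0396 and 0.0536. Dnase1l1 and Taz, 981 bases apart, had 0.0483 and 0.0765 at day 7, with a mean absolute difference over lines of 0.0491, and kept 34.1% and 69.9% at 24 h.

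The response to loss of function was compared between neighbours in the same way. The Spearman correlation of the log2 odds change between a gene and the next was 0.25 in the grouped comparison, 0.16 in SMCHD1 KO and 0.15 in E147A. It was 0.09 in LRIF1 KO and -0.12 in Y353C, against 0.02 for the day 7 level in log2 odds. Over the 201 neighbour pairs elsewhere the change had 0.05, 0.08, 0.006, 0.04 and 0.12 in the same order of comparisons. For the 23 pairs within 50 kb it had -0.09, 0.06, 0.11, -0.20 and -0.34 in that order. These are descriptions, since the genes share their libraries. In SMCHD1 KO the changes of 2 neighbours differed by 0.42 in the median pair, against 0.69 over all pairs and 0.48 over neighbours elsewhere. In the grouped comparison the log2 odds changes of 2 neighbours differed by 0.36 in the median pair, against 0.42 over all pairs of the 43 genes and 0.37 over neighbours elsewhere. Of the 12 called genes, 6 formed 3 neighbouring pairs, Idh3g with Ssr4, Ikbkg with G6pdx and Mtcp1 with Brcc3. In E147A, Mtcp1 and Brcc3 were the 1 adjacent pair among 9 calls. Neither count of pairs was set against that of calls placed at random along the 43 genes. The 5 facing pairs differed by 1.37 in E147A and by 0.47 in the grouped comparison, more than the medians over all 42 pairs, 0.59 and 0.36. Fam3a, for example, differed by 0.19 in E147A where Ikbkg rose by 1.56. The facing pairs also differed more than all 42 pairs in SMCHD1 KO (0.77 against 0.42) and Y353C (1.03 against 0.66). In LRIF1 KO they differed less (0.29 against 0.49). Ikbkg contains the whole of G6pdx on the other strand.

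The segment was cut at the 4 gaps of more than 500 kb between listed genes. This gave a dense block of 28 genes from Zfp185 to G6pdx and a block of 10 from Gab3 to Pls3. It also gave a block of 3 from Mir669m-2 to Prkx, and Prrg1 and Mageb16 alone. The dense block differed by a median of 0.76 in log2 odds in SMCHD1 KO and the second block by 0.35. In E147A they differed by 1.18 and 1.06, and in the grouped comparison by 0.72 and 0.53. There 9 of 28 and 2 of 10 genes were called, where the background was 22.9% of 249 genes. The difference between the blocks was not tested. The share left at 24 h had a median of 54.2% in the dense block and of 64.8% in the second.

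Set beside the rest of the chromosome, the 43 genes had more of their ratio left at 24 h than the genes on either side of them, which was not tested. The median share left at 24 h was 56.4% for the 43, 35.6% for 56 genes between 45 Mb and the segment, 34.8% for 57 genes beyond it without Xist, 54.8% for 38 genes from 20 to 45 Mb and 49.1% for all 205 other genes. In each of the 6 libraries at 24 h the median ratio of the genes (0.241 to 0.308, with 40 of the 43 genes in K518E) was above that of the genes between 45 Mb and the segment (0.157 to 0.196) and that of the genes beyond it (0.133 to 0.192). Against the whole rest of the table the median was higher by 0.0263 to 0.0450 at 24 h. At day 7 it was above that of the genes between 45 Mb and the segment in 16 of 18 libraries (differences of -0.00512 to 0.0343), above that of the genes beyond the segment in 14 (-0.00490 to 0.0342), and above that of the whole rest in 4 (-0.00856 to 0.0218). At 24 h the segment's median was below that of genes from 20 to 45 Mb in Halo-SMCHD1, E147A and K518E. The values were 0.257 against 0.275, 0.286 against 0.291 and 0.241 against 0.243 in this order. The segment was higher in LRIF1 KO, Y353C and G137E. At day 7 the segment was above these genes in both SMCHD1 KO libraries and Y353C replicate 2, and below them in every other library.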

How the data were processed

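The 2 deposited tables, both of allelic ratios, were used. Per the labels and the study's methods, the authors mapped paired ChrRNA-seq reads of 81 bases to mm10 with variant positions masked (Bowtie2 against rRNA, STAR), split them by allele with SNPsplit, counted them by strand over whole genes with featureCounts, and deposited the fraction Xi/(Xi+Xa) for genes with at least 10 allelic reads. Depth is unknown, since no counts were used. The 14 libraries in both tables held identical values. All 43 genes entered every fit of the larger table, with no filter on low values.

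Ratios were turned into log2 odds, log2((ratio + 0.01)/(1 - ratio + 0.01)), so a difference understates the change of genes near 0. limma 3.58.1 (R 4.3.3) was fitted across all genes of a table, with Benjamini-Hochberg adjustment over that table and a threshold of 0.05. The line was a block for 24 h against uninduced. Replicates of the differentiated stages are repeat differentiations of 1 clone. The p-values of those comparisons measure the spread between libraries of a clone, not between clones. The test of 24 h against uninduced has 1 undifferentiated library per line and stage. Its p-values measure how much the change differed between the lines. Other steps used Python 3.11.15 with pandas 2.3.3, numpy 2.4.6, scipy 1.17.1 and matplotlib 3.10.9. The fit was tested on simulated data.

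The genes, role lists and motif were chosen with earlier results of these data known. Genes were named by rule: those called in any comparison, the 3 with the largest change without overlap in each, the 4 highest and 4 lowest at day 7 and in share left, those unbalanced before induction, the closest neighbours and the 2 most different ones. F8, Vbp1, Pdzd4 and the other neighbours were named after their values were seen. Values of 3 of the genes are not reported here, and counts and medians include them. Alternatives were other pseudocounts, untransformed ratios, only the compared libraries, a replicate block, another control line, other limma settings and leaving out each library.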

Additional observations from a re-analysis of the deposited data

Results flagged for a closer look

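In 86 groups of 5 single libraries (43 genes, uninduced and at 24 h), 3 held 1 line far from the others, where chance gives about 1 in 20. L1cam had a ratio of 0.700 in uninduced Y353C, against 0.389 to 0.458 in the other 4 lines. Fundc2 had 0.540 in uninduced G137E, against 0.481 to 0.483. F8 had 0.652 in Halo-SMCHD1 at 24 h, against 0.478 to 0.518. Each is 1 library, and the cause was not tested.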

How the results depend on the processing

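Counts of called genes depended on the setting where few libraries were compared. In SMCHD1 KO the count of 0 became 10 with Halo-SMCHD1 as control. In E147A the 9 calls became 4 with a pseudocount of 0.001 and 0 with only the compared libraries or with iXist-ChrX as control, and leaving out 1 library gave 0 to 20. In Y353C the 1 call became 0 with only the compared libraries or iXist-ChrX as control, and leaving out 1 library gave 0 to 3. The 12 calls of the grouped comparison ranged from 4 (without iXist-ChrX replicate 2) to 17, with 7 without SMCHD1 KO replicate 2 and 7 without the E147A library with no matched number. For day 7 against day 5, the 4 calls in Halo-SMCHD1 became 0 with a pseudocount of 0.001, 7 with 0.05, 11 with untransformed ratios and 0 with only the compared libraries, and leaving out 1 library gave 0 to 6. The 5 calls in G137E became 0, 9, 11 and 0 in the same order and 3 with robust and trended limma, and leaving out 1 library gave 0 to 10. At 24 h leaving out 1 line gave 42 to 43. The other comparisons had 0 calls in each alternative run.

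The replicate numbers were not taken to pair the samples, since not every same-numbered pair deviated together: their deviations had a median correlation of 0.0517 over 65 pairs, of which 22 were above 0.1, and of 0.0439 over 31 pairs in the second table, of which 7 were. Differently numbered libraries had medians of -0.0454 (18 of 94 above 0.1) and -0.0146 (6 of 50), so same-numbered ones were slightly more alike. The fit with a replicate block left out the E147A library with no matched replicate number, also from the grouped comparison. It kept 1 E147A library, so no count is given for E147A. The calls were 1 in Y353C and 11 in the grouped comparison. For day 7 against day 5 they were 10 in Halo-SMCHD1 and 13 in G137E. The other comparisons fitted with this block had 0. The comparison of 24 h with uninduced has the line as its block and was not fitted with a replicate block.

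After subtracting the change of the rest of the table, the mean ratio difference of the 43 genes was -0.0022 for Halo-SMCHD1 against iXist-ChrX, 0.0133 for SMCHD1 KO, -0.0013 for LRIF1 KO, 0.0126 for E147A, 0.0090 for Y353C and 0.0087 for the grouped comparison. It was 0.0036 for K518E at day 5, where the sign turned, and -0.00023 for K518E against G137E. Rpl10, at 0.431 in K518E and 0.274 in Halo-SMCHD1 at day 5, entered that mean, which was not recomputed without it. In median log2 odds K518E differed from Halo-SMCHD1 at day 5 by -0.50 over the genes of the segment and by -0.46 over the rest. The turned sign thus belongs to the mean ratio. For day 7 against day 5 the values were -0.0027, -0.0061 and -0.0031 in Halo-SMCHD1, G137E and K518E. Leaving out 1 library gave mean differences from -0.02 to -0.00753 for Halo-SMCHD1 against iXist-ChrX, 0.0193 to 0.0406 for SMCHD1 KO, 0.00065 to 0.0197 for LRIF1 KO, 0.0179 to 0.0818 for E147A, 0.0247 to 0.0327 for Y353C and 0.0207 to 0.0367 for the grouped comparison. It gave -0.00196 to 0.0156 and -0.00462 to 0.00651 for G137E at days 5 and 7, -0.0258 to -0.00819 and -0.00083 to 0.00773 for K518E, -0.0321 to -0.0156 for K518E against G137E, and -0.0393 to -0.0217, -0.0442 to -0.0277 and -0.0119 to -0.01 for the change from day 5 to day 7 in Halo-SMCHD1, G137E and K518E. Among neighbours, the median day 7 difference was 1.15 on the log2 odds scale, against 1.11 over all pairs, so the order seen in the ratios turned. The causes were not tested.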
